A study of Mus musculus with 8 samples.

Results

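Chemokine ligands are small secreted proteins that direct the movement of cells, and 10 genes for them were followed here in microglia sorted from the mouse spinal cord: Ccl2, Ccl3, Ccl4, Ccl5, Ccl6, Ccl9, Ccl12, Cxcl2, Cxcl10 and Cxcl16. The members were named as a list and found by Ensembl identifier, and all 10 were among the 54532 genes of the count table. Cells came from 8 female mice, 4 wild type (WT) and 4 carrying the knock-in named Cd11b-P2X4mCherryIN in the labels (KI), with 1 RNA sequencing library per mouse. Both groups are the same tissue and sort, and the labels as used here name no age, disease or treatment. P2X4 is a cation channel opened by extracellular ATP, and the allele P2X4mCherryIN is known as a non-internalised form of it fused to the fluorescent protein mCherry. The labels do not say how expression is tied to Cd11b. The sort kept living CD11b+ cells with low CD45 and no Ly6C, a gate that leaves out most monocytes and neutrophils.

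Chemokines are grouped by the spacing of their first cysteines into the CC and CXC families, and they act on G protein-coupled receptors of the cells they attract. Microglia are a main source of several CC chemokines in brain and spinal cord, and transcription of these genes is known to rise quickly after tissue injury and after signals that activate NF-kB. Cxcl10 is in addition a classical target of interferons. Tissue dissociation itself is also known to induce Ccl3 and Ccl4 in microglia, together with immediate early genes.

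The libraries held 45167483 to 54049801 reads on genes. P2rx4, the gene of the receptor, was read at 741 to 842 CPM in WT and 785 to 938 CPM in KI (CPM, reads relative to the TMM-scaled library size), and reads over the whole gene do not separate a knocked-in sequence from the original one. All 10 listed microglial markers, among them P2ry12 and Tmem119, were measured in every library, with a summed level of 33833 to 38661 CPM in WT and 32452 to 36651 CPM in KI. Summed markers of other blood and border cells were far lower. Monocyte markers stood at 20.1 to 33 CPM in WT and 31.4 to 53.7 CPM in KI, border-associated macrophage markers at 5.32 to 10.4 and 4.38 to 18.2 CPM, and T and NK cell markers at 0.568 to 4.38 and 0.320 to 1.85 CPM. Neutrophil markers reached 18.5 CPM in WT 504, 17.4 CPM in KI 513 and 56.0 CPM in KI 528, and lay between 0.241 and 1.39 CPM in the other 5 libraries. Oligodendrocyte markers summed to 164 to 284 CPM in WT and 148 to 273 in KI, and erythroid markers to 153 to 497 and 93.8 to 294 CPM.

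Most of the genes lie in the CC chemokine clusters of mouse chromosome 11 (mm10). Ccl2 (82035571 to 82037453) and Ccl12 (82101845 to 82103400) lie in the same cluster on the plus strand, with Ccl7 and Ccl11 between them. Ccl5 (83525778 to 83530518), Ccl9 (83572919 to 83578636), Ccl6 (83587882 to 83593087) and Ccl3 (83647844 to 83649355) follow on the minus strand, with Ccl4 (83662584 to 83664683) on the plus strand. Cxcl16 is on the same chromosome (70453983 to 70459984, minus strand), and Cxcl2 (90903871 to 90905938, plus strand) and Cxcl10 (92346638 to 92348889, minus strand) are on chromosome 5. Exons of 8 members overlapped no exon of another gene in the annotation. Cxcl16 shared 552 exon bases with Zmynd15 and Cxcl10 shared 133 with Art3, each on the opposite strand, and without strand reads in those stretches cannot be told apart. Zmynd15 averaged 1.03 ± 0.551 CPM (WT) and 0.502 ± 0.534 CPM (KI), mean ± SD of 4 mice, against over 100 CPM for Cxcl16. Art3 averaged 1.32 ± 0.709 and 2.28 ± 1.98 CPM, against 2.89 ± 1.41 and 4.59 ± 1.66 CPM for Cxcl10.

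RefSeq promoter windows (GRCm38.p6, the build of mm10) were found for 6 of the 10 genes, and 5 are shown. Ccl3 is shown as a gene with one of the widest spreads between mice, Cxcl2 and Cxcl10 as the genes read at low levels, and Ccl6 and Ccl9 as neighbours whose levels were the steadiest. Each runs 5′ to 3′ towards the gene and stops before its first transcribed base in the annotation. Capitals mark matches, on either strand, to 4 motifs that were chosen after the windows had been read, with the NF-kB and ISRE letters changed once after a first search. They were the NF-kB consensus, the core of an interferon-stimulated response element (ISRE, GAAANNGAA), TGANTCA (AP-1) and GGAAGTG (an ETS core).
Ccl3 promoter: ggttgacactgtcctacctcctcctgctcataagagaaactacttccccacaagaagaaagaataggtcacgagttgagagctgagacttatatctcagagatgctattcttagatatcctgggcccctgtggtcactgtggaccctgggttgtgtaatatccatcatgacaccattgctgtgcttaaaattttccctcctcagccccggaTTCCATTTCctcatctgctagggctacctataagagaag
Cxcl2 promoter: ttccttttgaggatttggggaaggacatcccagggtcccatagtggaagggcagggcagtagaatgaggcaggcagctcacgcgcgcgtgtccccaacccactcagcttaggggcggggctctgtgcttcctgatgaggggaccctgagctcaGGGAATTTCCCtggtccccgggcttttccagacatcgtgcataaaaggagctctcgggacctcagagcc
Cxcl10 promoter: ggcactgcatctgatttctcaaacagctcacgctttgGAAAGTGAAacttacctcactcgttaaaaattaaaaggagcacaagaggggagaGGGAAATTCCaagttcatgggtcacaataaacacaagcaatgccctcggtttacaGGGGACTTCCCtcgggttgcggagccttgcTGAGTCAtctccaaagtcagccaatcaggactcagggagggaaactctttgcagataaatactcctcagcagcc
Ccl6 promoter: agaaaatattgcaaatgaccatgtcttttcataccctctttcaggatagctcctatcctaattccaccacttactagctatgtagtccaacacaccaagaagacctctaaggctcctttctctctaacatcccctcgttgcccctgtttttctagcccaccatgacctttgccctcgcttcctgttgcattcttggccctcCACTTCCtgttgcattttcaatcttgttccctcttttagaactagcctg
Ccl9 promoter: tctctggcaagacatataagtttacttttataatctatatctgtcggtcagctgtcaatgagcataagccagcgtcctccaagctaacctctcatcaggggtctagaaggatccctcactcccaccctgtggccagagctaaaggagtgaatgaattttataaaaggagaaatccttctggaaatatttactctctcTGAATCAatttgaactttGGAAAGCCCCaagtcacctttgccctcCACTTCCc
The windows are chr11:83649379-83649628 (Ccl3, minus strand), chr5:90903649-90903870 (Cxcl2, plus strand), chr5:92348890-92349139 (Cxcl10, minus strand), chr11:83593088-83593337 (Ccl6, minus strand) and chr11:83578637-83578886 (Ccl9, minus strand). In the 250 bases before the RefSeq start, Cxcl2 held 1 NF-kB site, matched on both strands in overlapping positions (−97 to −88 and −96 to −87). Cxcl10 held 2 NF-kB sites (−159 to −150, and overlapping matches from −104 to −94), 1 ISRE core (−213 to −205) and 1 AP-1 site (−74 to −68). Ccl9 held 1 NF-kB, 1 AP-1 and 1 ETS site, Ccl6 held 1 ETS site, and the window of Ccl3 held 1 ISRE core (−39 to −31) and none of the others. Under the letters of the first search, Ccl3 held no match and Cxcl2 held a further NF-kB site. A match is a description of the letters and not of binding. Of the 32851 mouse promoter windows of the table, 7.25% held the NF-kB consensus, 7.13% the ISRE core, 6.75% AP-1 and 8.55% ETS. The longest run that Ccl6 and Ccl9 shared was the 13 bases gccctccacttcc, which include the ETS letters of both and start at −55 in Ccl6 and −14 in Ccl9.

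Levels between genes were compared as the authors' deposited FPKM (a level per length and depth), averaged over the 8 libraries. Ccl4 stood highest at 833 ± 372 FPKM (SD, n = 8), followed by Ccl3 at 630 ± 249, Ccl12 at 499 ± 85.9, Ccl2 at 412 ± 80.0 and Ccl6 at 348 ± 27.4 FPKM. Ccl9 (79.6 ± 3.53 FPKM) and Cxcl16 (46.2 ± 6.05) were intermediate. Ccl5 (8.35 ± 2.94 FPKM) and Cxcl10 (1.80 ± 0.789) were low, and Cxcl2, at 0.0882 FPKM, was at the limit of detection. Ccl4 exceeded Ccl3 in 8 of 8 libraries. Ccl3 exceeded Ccl12 in only 5 of 8, and Ccl12 exceeded Ccl2, and Ccl2 exceeded Ccl6, in 7 of 8, so the order of these neighbours was not kept in every mouse. From Ccl6 downwards each gene exceeded the next in 8 of 8 libraries. In every library these 10 genes held over 95% of the summed CPM of all chemokine ligands in the table, from 95.8% to 97.2%.

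**Figure D1:**
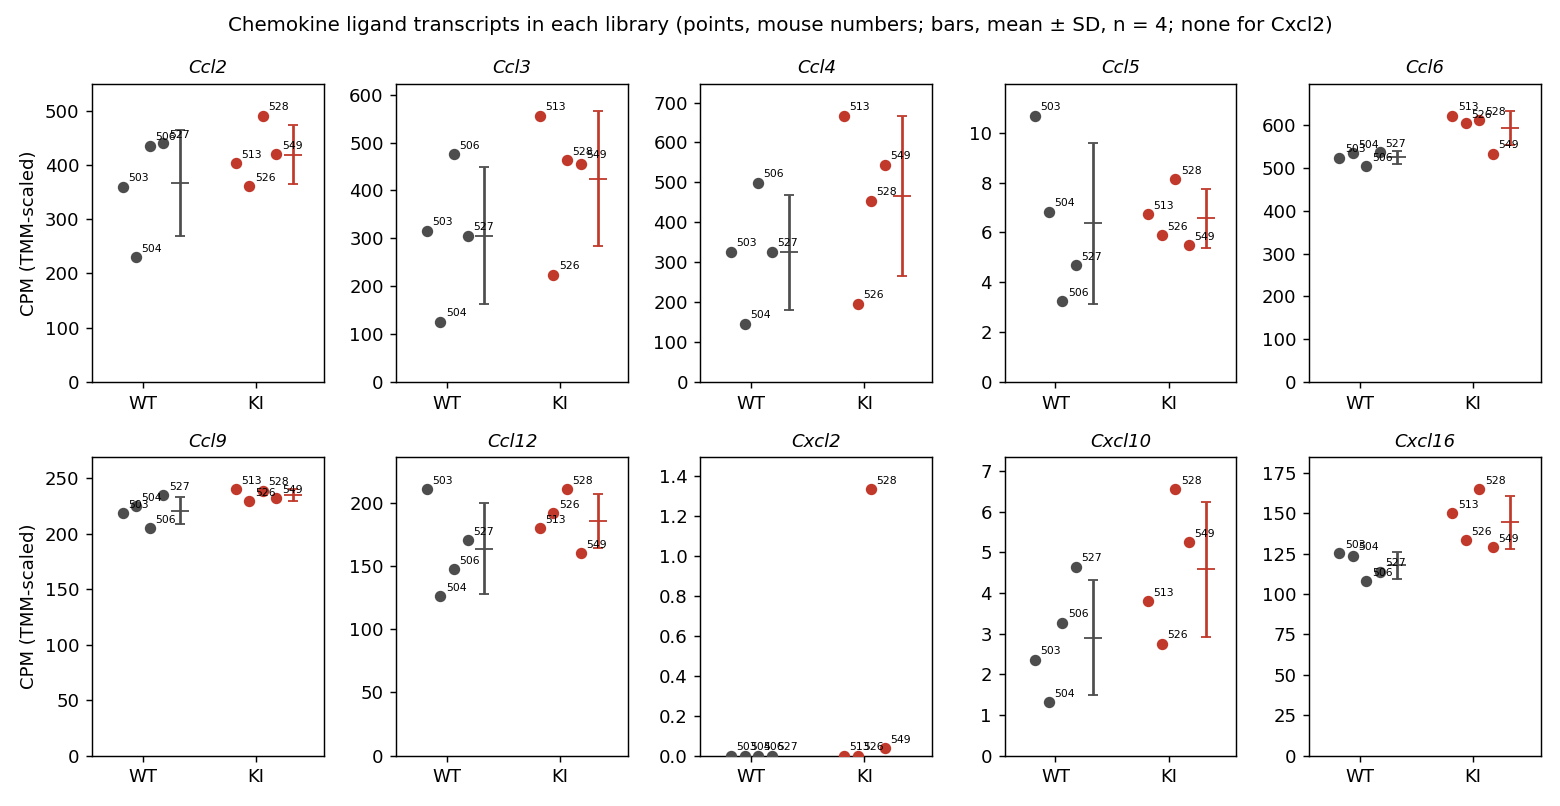
TMM-scaled CPM (y axis, starting at 0) of each chemokine ligand gene in the 4 WT and 4 KI libraries; points are single mice, labelled by number, and bars are the mean ± SD of 4, with none drawn for Cxcl2. Only for Cxcl16 do all KI points (129 to 165 CPM) lie above all WT points (108 to 125 CPM).

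The design sets KI against WT females. Of the 10 genes, 9 passed the filter on low counts and Cxcl2 did not. The means of all 9 were higher in KI, with log2 fold changes from 0.04 (Ccl5) to 0.66 (Cxcl10) and a median of 0.19, where 50.1% of all 17291 genes tested lay above 0 with a median of 0.00. None of these differences passed the edgeR quasi-likelihood test: 0 of 9 were called at an adjusted p under 0.05, as were 0% of all genes, and DESeq2 also called 0 of the 9 (1.26% of all genes). At an unadjusted p under 0.05 were Ccl6 and Cxcl16, both higher, where 3.23% of all genes were at that level and higher, 4.56% lower and 7.79% in either direction. The 9 genes share their 8 libraries, so 9 of 9 is a description and not 9 separate observations, and without WT 506, WT 527 or KI 528 it was 8 of 9. In bulk libraries more cells of a type and more RNA per cell cannot be told apart.

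**Figure D2:**
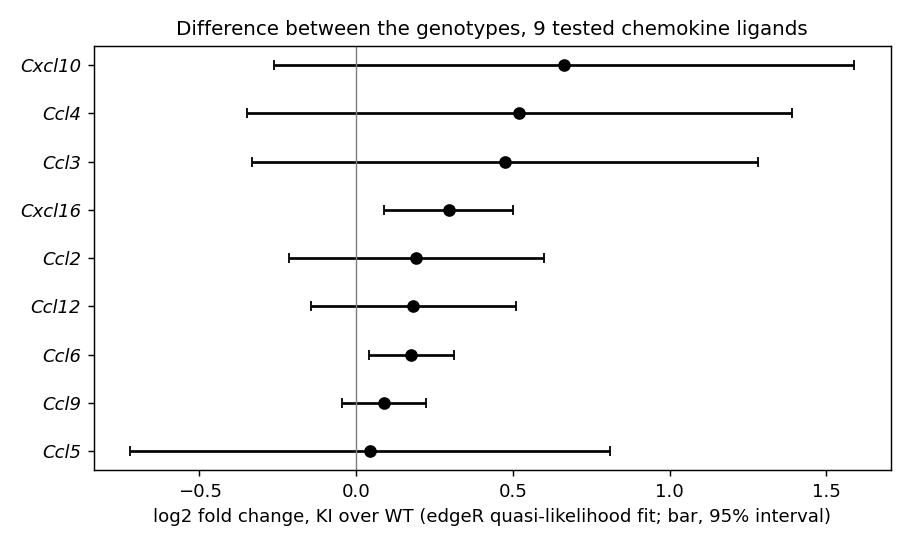
Log2 fold change of KI over WT (x axis) for the 9 tested chemokine ligands, with 95% intervals from the edgeR quasi-likelihood fit. Only the intervals of Cxcl16 (0.09 to 0.50) and Ccl6 (0.04 to 0.31) lie above 0, without adjustment for the number of genes.

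Ccl2 and Ccl12 are ligands of Ccr2 and draw monocytes. Ccl2 stood at 359.8, 229.7, 436 and 439.9 CPM in WT 503, 504, 506 and 527, and at 403, 360.2, 491 and 419 CPM in KI 513, 526, 528 and 549. The groups overlapped, with WT 504 lowest and KI 528 highest. The means were 366 ± 98.2 CPM in WT and 418 ± 54.3 in KI (SD over 4 mice each), giving a log2 fold change of 0.19 (SE 0.183, 95% interval −0.21 to 0.60, edgeR adjusted p = 0.874). Without WT 504 it fell to 0.02. Ccl12, a mouse gene whose protein also binds Ccr2, was read at 211, 126, 148 and 170.3 CPM in WT 503, 504, 506 and 527. In KI 513, 526, 528 and 549 it was read at 179.9, 192, 211 and 160.2 CPM. WT 503 and KI 528 were about equally high and WT 504 was again lowest. KI exceeded WT by a log2 fold change of 0.18 (SE 0.147, 95% interval −0.15 to 0.51, edgeR adjusted p = 0.836). It was 0.08 without WT 504 and 0.33 without WT 503. The ratio of Ccl2 to Ccl12 CPM ran from 1.71 in WT 503 to 2.95 in WT 506, so these genes of 1 cluster did not keep a fixed proportion.

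Ccl3 and Ccl4, which draw macrophages and T cells, varied most between mice of 1 genotype among the abundant ligands. Ccl3 stood at 316, 126, 476 and 305 CPM in WT 503, 504, 506 and 527, and at 556, 224, 463 and 456 CPM in KI 513, 526, 528 and 549. Ccl4 followed it with 327, 146, 499 and 326 CPM in the same WT libraries, and 667, 196, 455 and 544 CPM in the KI libraries. For both genes WT 504 was lowest, KI 526 was next, KI 513 was highest, and WT 506 lay among the KI libraries. From the lowest to the highest library Ccl3 differed 4.43-fold and Ccl4 4.58-fold, while the ratio of Ccl4 to Ccl3 CPM stayed between 0.873 (KI 526) and 1.2 (KI 513). Mean Ccl3 was 306 ± 143 CPM for WT and 425 ± 141 CPM for KI (SD of 4 mice). The log2 fold change was 0.47 (SE 0.363, 95% interval −0.33 to 1.28, edgeR adjusted p = 0.816), and 0.22 without WT 504 or 0.77 without WT 506. For Ccl4 the means were 324 ± 144 and 465 ± 199.9 CPM, and the log2 fold change was 0.52 (SE 0.391, 95% interval −0.35 to 1.39, edgeR adjusted p = 0.811), with 0.28 and 0.81 without the same libraries. On the linear scale the intervals reach 0.794-fold to 2.43-fold for Ccl3 and 0.785-fold to 2.62-fold for Ccl4.

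Ccl5, a CC chemokine that T and NK cells make in quantity, was low. It was read at 10.7, 6.83, 3.24 and 4.68 CPM in WT 503, 504, 506 and 527, and at 6.73, 5.88, 8.14 and 5.49 CPM in KI 513, 526, 528 and 549. The KI values lay inside the WT range. The log2 fold change was 0.04 (SE 0.344, edgeR adjusted p = 0.989), and the sign turned to −0.17 without WT 506. In WT 503, where Ccl5 was highest, the summed T and NK cell markers were at 0.568 CPM, and in WT 504, where those were highest (4.38 CPM), Ccl5 was at 6.83 CPM. Of the 10 T and NK cell markers, Lck alone passed the filter on low counts, and 3 had 0 reads in at least 4 libraries. The part of T and NK cells in the Ccl5 reads was not tested.

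Ccl6 and Ccl9, ligands of Ccr1 known from rodents, were the steadiest members. Ccl6 stood at 524, 535, 504 and 538 CPM in WT 503, 504, 506 and 527, and at 623, 604, 612 and 534 CPM in KI 513, 526, 528 and 549. Among the KI libraries 3 lay above all WT libraries, and KI 549 lay within the WT range. Means of 525 ± 15.4 and 593 ± 40.4 CPM (SD, n = 4 each) gave a log2 fold change of 0.18 (SE 0.061, 95% interval 0.04 to 0.31), or 12.9% more in KI. The unadjusted p was 0.0162, and the adjusted p of the edgeR quasi-likelihood test was 0.572. DESeq2 gave an adjusted p of 0.232. Ccl9 was read at 218, 225, 205 and 235 CPM in the WT libraries in the same order, and at 239.9, 229, 239 and 232 CPM in the KI libraries. The groups overlapped through WT 527, and the log2 fold change was 0.09 (SE 0.060, 95% interval −0.04 to 0.22, edgeR adjusted p = 0.793). The ratio of Ccl6 to Ccl9 CPM ran only from 2.29 to 2.64.

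Cxcl16, made as a membrane protein and shed by metalloproteases, is the ligand of Cxcr6. It stood at 125, 124, 108 and 114 CPM in WT 503, 504, 506 and 527, and at 150.2, 133, 165 and 129 CPM in KI 513, 526, 528 and 549. All 4 KI libraries lay above all 4 WT libraries, with 125 CPM in WT 503 and 129 CPM in KI 549 as the nearest values. Of all genes tested, 4.94% showed no overlap between the groups, 2.34% with KI higher. The means were 118 ± 8.27 and 144 ± 16.4 CPM (SD, n = 4 each), a log2 fold change of 0.29 (SE 0.093, 95% interval 0.09 to 0.50), or 22.6% more in KI. The unadjusted p was 0.00977. Its adjusted p was 0.545 by the edgeR quasi-likelihood test and 0.15 by DESeq2. KI 528 was highest, and leaving it out gave 0.23.

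Cxcl10, the ligand of Cxcr3, stood at 2.36, 1.31, 3.26 and 4.64 CPM in WT 503, 504, 506 and 527, which is 61 to 234 reads. In KI 513, 526, 528 and 549 it stood at 3.80, 2.75, 6.55 and 5.25 CPM. WT 504 was lowest and KI 528 highest, and WT 527 lay between KI 513 and KI 549. Its log2 fold change of 0.66 was the highest of the members but had the widest interval (SE 0.416, 95% interval −0.26 to 1.59, edgeR adjusted p = 0.768), and it ran from 0.42 without WT 504 to 0.99 without WT 527. Cxcl2, a Cxcr2 ligand that draws neutrophils, had 0 reads in all 4 WT libraries and in KI 513 and KI 526, which allows up to 0.0549 to 0.067 CPM per library. It had 60 reads in KI 528 (1.33 CPM) and 2 in KI 549 (0.0371 CPM), so its level in KI rests on 1 mouse and no fold is given. KI 528 was also the library with the most neutrophil markers (56.0 CPM over 8 genes, all 8 with reads), and with the highest summed monocyte (53.7 CPM) and border-associated macrophage markers (18.2 CPM). Neutrophil markers came next in WT 504 (18.5 CPM) and KI 513 (17.4 CPM), which both had 0 Cxcl2 reads. They were lowest in KI 549 (0.241 CPM), which had 2. The part of neutrophils, monocytes and border-associated macrophages in the Cxcl2 reads was not tested. Cxcl2 is also 90% identical to Cxcl3 over 561 aligned transcript bases, so that single reads may be assigned to either; Cxcl3 itself had at most 0.0366 CPM in any library.

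Spread between mice of 1 genotype differed widely among the members. The SD of log2 CPM within groups was 0.76 for Ccl4, 0.70 for Ccl3, 0.34 for Ccl2 and 0.25 for Ccl12, and only 0.14 for Cxcl16, 0.08 for Ccl6 and 0.06 for Ccl9. Independent reads at these depths would give an SD of 0.01 for Ccl3 and Ccl4. Among the 2068 genes averaging 100 CPM or more, whose median SD was 0.12, Ccl4 and Ccl3 lay at the percentiles 99.8 and 99.6, Ccl2 at 98.2 and Ccl12 at 95.9. Cxcl16 lay at 61.3, Ccl6 at 14.4 and Ccl9 at 5.42. The low genes Cxcl10 (SD 0.66) and Ccl5 (0.55) were near the trend of genes at their level, with genewise over trended coefficients of variation of 1.01 and 1.07, against 3.45 for Ccl4 and 3.21 for Ccl3. Leaving out WT 504 lowered the SD of Ccl2 to 0.18, while those of Ccl3 (0.50) and Ccl4 (0.64) stayed high.

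**Figure D3:**
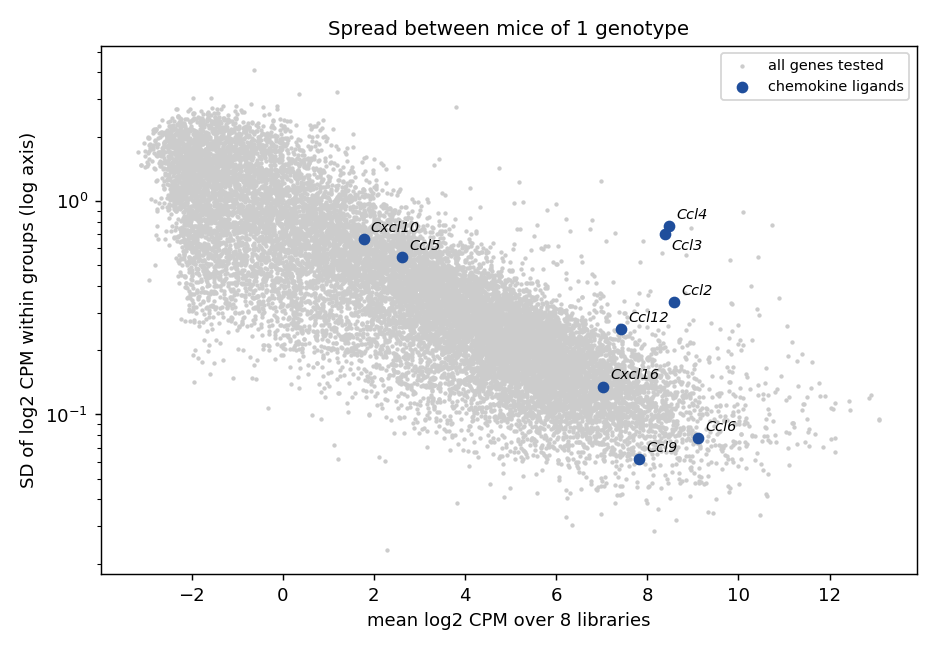
SD of log2 CPM within genotype groups (y axis, log scale) against mean log2 CPM over 8 libraries (x axis) for all 17291 genes tested (grey) and 9 chemokine ligands (blue). Ccl3 and Ccl4 (0.70 and 0.76) stand above most genes of like level, Ccl6 (0.08) lies in the lower part of such genes, and Ccl9 (0.06) lies near their lower edge.

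The same libraries were high or low for several ligands. WT 504 was below the mean of the 8 libraries in 8 of the 9 tested members and held the lowest value of 5 of them (Ccl2, Ccl3, Ccl4, Ccl12 and Cxcl10), while WT 506 held the lowest of the other 4. KI 513 and KI 528 were above the mean in 9 of 9 and held the highest values of 4 each, Ccl5 being highest in WT 503. Immediate early and stress genes, a list of 28 transcripts that tissue dissociation is known to induce, had a mean level that was lowest in WT 504 and KI 526 and highest in KI 513, as were Ccl3 and Ccl4. That mean (log2 CPM centred over the 8 libraries) was −0.01, −1.12, 0.43 and 0.01 in WT 503, 504, 506 and 527, and 0.64, −0.60, 0.41 and 0.26 in KI 513, 526, 528 and 549. Ccl3 on the same scale stood at −0.08, −1.41, 0.51 and −0.13 in the WT libraries and 0.74, −0.57, 0.48 and 0.45 in the KI libraries. In that list 23 of 28 log2 fold changes were above 0, with a median of 0.34, where 50.1% of all genes tested lay above 0. Of the list 1 gene was at an unadjusted p under 0.05, where 7.79% of all genes were, and 0 were called. Its part in the differences of Ccl2, Ccl3, Ccl4 and Cxcl10 between the genotypes was not tested. The heat shock genes of the list went their own way in part, since Hspa1a stood at 47.0 CPM in WT 504 and 46.0 CPM in WT 506, and Dnajb1 at 245 and 231 CPM, where Ccl3 stood at 126 and 476 CPM. Ccl6 in WT 504 (535 CPM) lay within the other WT values, where Ccl3 was lowest.

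**Figure D4:**
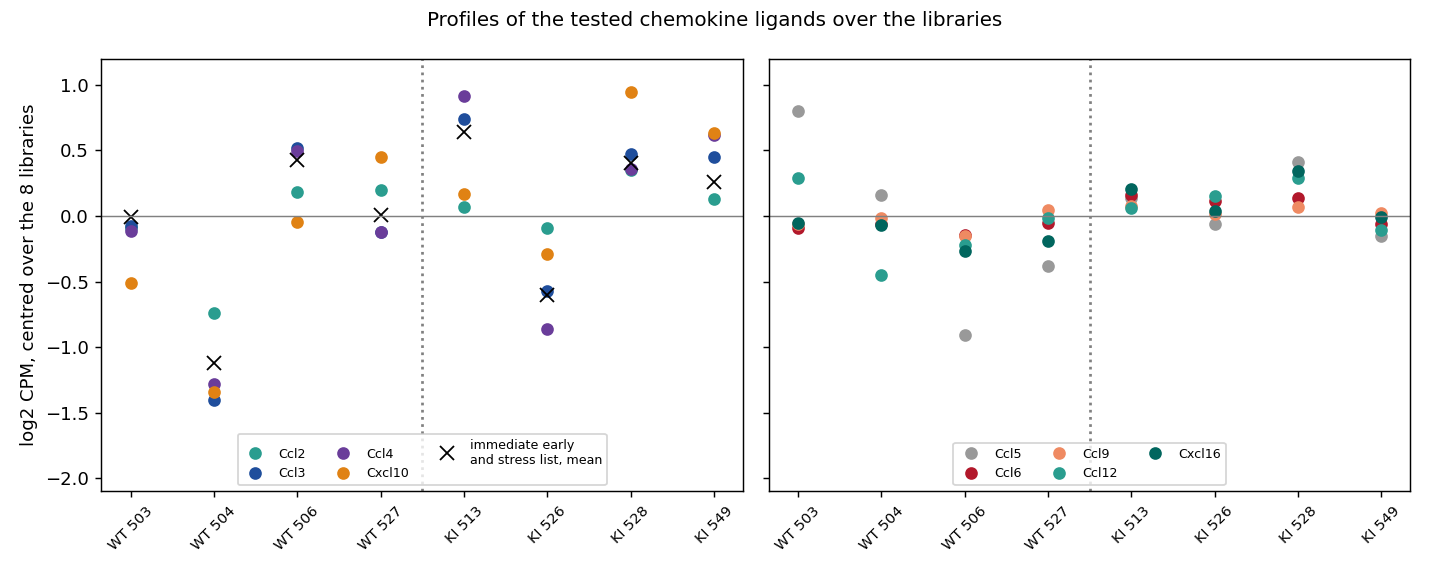
Log2 CPM centred over the 8 libraries (y axis) for each library (x axis; WT left and KI right of the dotted line). On the left, Ccl2, Ccl3, Ccl4, Cxcl10 and the mean of 28 immediate early and stress genes (crosses, −1.12 in WT 504 and 0.64 in KI 513). On the right, Ccl5, Ccl6, Ccl9, Ccl12 and Cxcl16, of which Ccl6 and Ccl9 stay within 0.2 of 0.

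The genes whose profile over the 8 libraries was most like that of Ccl3 were found among 10163 genes averaging 5 CPM or more, by the root mean square difference of centred log2 CPM. They were Adamts1, a secreted protease (0.13), and the transcription factors Klf4 (0.20), Egr1 (0.22) and Fos (0.23). A flat profile would differ from Ccl3 by 0.67. The same 4 genes were nearest to Ccl4, in the order Klf4 (0.16), Fos (0.19), Adamts1 (0.20) and Egr1 (0.23). Klf4, Fos and Egr1 belong to the immediate early list. Mean Fos was 1078 ± 497 CPM (WT) and 1418 ± 635 CPM (KI), and Klf4 33.9 ± 14.4 and 44.3 ± 21.4, with a log2 fold change of 0.40 and 0.39 and no call. For Cxcl10 the nearest genes were Pinx1, Hells, Etfbkmt and Rap1gap2, at 0.31 to 0.34 where a flat profile differed by 0.68.

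The receptors of these ligands were read at very unequal levels, and 0 of the 6 that passed the filter were called. Ccr1, a receptor of Ccl3, Ccl6 and Ccl9, averaged 96.8 ± 9.73 CPM (WT) and 105.6 ± 12.4 CPM (KI), here and below as mean ± SD over 4 mice, with a log2 fold change of 0.13 (edgeR adjusted p = 0.845). Ccr2, the receptor of Ccl2 and Ccl12 and a marker of monocytes, averaged only 3.0 ± 0.781 and 3.86 ± 2.19 CPM. Cxcr3 (3.19 ± 1.32 and 2.76 ± 1.21 CPM), Ccr3 (2.89 ± 1.37 and 3.29 ± 0.918 CPM) and Cxcr6 (1.43 ± 0.743 and 1.27 ± 0.758 CPM) were as low. Cxcr1, Cxcr2, Ackr1 and Ackr2 did not pass the filter. Receptors had 3 log2 fold changes above and 3 below 0, with a median of 0.02.

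Of 30 other chemokine ligands listed and counted, 12 passed the filter, 8 above and 4 below 0 (median 0.25), and 0 were called. Ccl25 was the one at an unadjusted p under 0.05, where 7.79% of all genes tested were. It was lower in every KI library, at 11.1 ± 0.675 CPM against 14.0 ± 0.796 in WT (log2 fold change −0.34, edgeR adjusted p = 0.609). No overlap in either direction was seen for 4.94% of all genes tested. Next by p with a mean of at least 1 CPM were the platelet chemokines Ppbp (2.60 ± 1.48 and 1.43 ± 1.34 CPM) and Pf4 (0.83 ± 0.311 and 1.39 ± 0.989 CPM), Ccl22 (0.874 ± 0.700 and 2.01 ± 2.06 CPM) and Cxcl14 (1.49 ± 0.513 and 2.03 ± 0.915 CPM), all with overlapping groups. Ccl19, Ccl21a, Ccl21b and Ccl27b had 0 reads in all 8 libraries.

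Genes that induce, degrade or process these transcripts and proteins had 0 calls as well. Of 20 genes of NF-kB signalling, 13 lay above and 7 below 0 (median 0.04), and 0 were called. The list holds inhibitor genes beside activators, so these signs give no direction of induction. At an unadjusted p under 0.05 were 2 genes, both lower, where 4.56% of all genes tested were at that level and lower. These were Myd88, the adaptor of Toll-like receptors (76.5 ± 5.49 CPM against 63.8 ± 6.25 in KI, log2 fold change −0.26, edgeR adjusted p = 0.592), and the inhibitor gene Nfkbie (44.1 ± 4.15 and 33 ± 8.13 CPM, log2 fold change −0.42, adjusted p = 0.598). The groups of Myd88 did not overlap, as in 4.94% of all genes tested in either direction, and those of Nfkbie did. Irak1 (61.0 ± 8.18 and 72.0 ± 10 CPM), Nfkb2 (6.03 ± 2.27 and 4.36 ± 0.671 CPM) and the NF-kB subunit gene Rela (51.6 ± 6.93 and 45.4 ± 4.25 CPM) came next by p. Of 12 genes of interferon signalling, 7 lay above and 5 below 0 (median 0.01). Stat2, a transcription factor of interferon signalling, averaged 33.4 ± 7.06 and 27.1 ± 2.73 CPM. Ifngr2 (541 ± 10.2 and 577 ± 41.5 CPM), Irf1 (40.3 ± 6.36 and 44.8 ± 2.32 CPM) and Ifnar1 (192 ± 28.4 and 174 ± 19.2 CPM) followed.

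Of 7 genes of mRNA decay, whose products bind chemokine transcripts, 3 lay above and 4 below 0 (median −0.01). Hnrnpd was at 27.8 ± 2.28 CPM (WT) and 34.2 ± 2.67 CPM (KI), a log2 fold change of 0.30 (edgeR adjusted p = 0.598). Its groups did not overlap, as in 4.94% of all genes tested, 2.34% with KI higher. Zfp36l2 (192 ± 28.5 and 234 ± 60.7 CPM), Zfp36l1 (122 ± 21.9 and 109 ± 23.5 CPM), Zc3h12a (9.99 ± 1.32 and 9.45 ± 2.50 CPM) and Khsrp (7.40 ± 2.23 and 7.84 ± 1.52 CPM) overlapped. Among the 7 tested genes of shedding and trimming, 3 were above and 4 below 0 (median −0.00). Adam10, a main sheddase of Cxcl16, averaged 968 ± 81.6 and 918 ± 52.3 CPM (log2 fold change −0.08, edgeR adjusted p = 0.868). Ctss (7366 ± 404 and 7678 ± 817 CPM), Ctsc (2729 ± 211 and 2771 ± 218 CPM), Furin (40.3 ± 2.88 and 38.7 ± 1.91 CPM) and Mmp12 (6.26 ± 2.17 and 7.29 ± 2.7 CPM) overlapped. In the immediate early list the named genes were Hspa1b (3.0 ± 1.16 and 6.11 ± 4.77 CPM), Hsp90aa1 (107 ± 16.6 and 139 ± 45.6 CPM), Klf6 (1129 ± 250 and 1452 ± 405 CPM), Ier5 (71.4 ± 22.8 and 91.9 ± 13.7 CPM) and Atf3 (119.7 ± 74.8 and 209 ± 136 CPM), and their groups overlapped.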

How the data were processed

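The submitters' processing notes name mm10, featureCounts 2.0.3, SAMtools 1.9, STAR 2.7.5c, limma, edgeR and R 3.6.0. Per the file headers, the deposited counts are primary alignments over exons, by gene and without strand. Among counts of 1 to 9 between 68.9% and 70.8% were even, so both reads of a pair may count. The tool behind the authors' deposited FPKM was not stated in these sources. Another 8 columns of counts match no label of these libraries and were left out. Symbols came from GENCODE M21 for 54409 of 54532 identifiers.

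Counts were tested in edgeR 4.0.16 (R 4.3.3) with TMM, filterByExpr (minimum count 10, minimum total 15), the robust quasi-likelihood test with group alone, and Benjamini-Hochberg adjustment over 17291 genes at 0.05, a script checked on simulated data. In those simulated data the quasi-likelihood test called 19.4% of genes changed 1.5-fold, 41.8% changed 2-fold and 62.1% changed 4-fold. Log2 CPM used a prior count of 2. Alternatives were DESeq2 1.42.0, limma 3.58.1, the likelihood ratio test, other scaling, no filter, halved counts, log2 FPKM and each library left out. Transcripts were aligned with BLAST 2.17.0. Named genes were the members, the tested receptors, up to 5 genes per list with the smallest p and a mean of at least 1 CPM, and the 4 nearest profiles of the 3 members with the widest spread. Results of some genes that this rule names are not reported here. Members and lists were chosen with earlier results of these data known. Intervals are 95%, and a count of 0 allows 3 reads, for counting error only. This allowance and the counting SDs take reads as independent, and are too small if both reads of a pair count. Each mouse gave 1 library.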

Additional observations from a re-analysis of the deposited data

Results flagged for a closer look

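Cxcl2 in KI 528 stood at 1.33 CPM, far from the other KI libraries (0, 0 and 0.0371 CPM), a gap that took up 0.972 of the range of the group. It was the only such value in 19 sets of 4 libraries, 1 per gene and genotype with any reads. The usual rate of about 1 of 20 sets by chance holds for normally distributed values and does not apply here, since 2 of the 4 libraries had 0 reads and any single library with reads then gives a wide gap.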

How the results depend on the processing

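Over all genes, 0 were called by the edgeR quasi-likelihood test (1347 at an unadjusted p under 0.05), 248 by DESeq2, 42 by the edgeR likelihood ratio test and 1 by limma on log2(FPKM + 1). Of the tested chemokine ligands 0 were called under all 16 alternatives, while 2 (Ccl6 and Cxcl16) were at an unadjusted p under 0.05 in the main test. That set changed with single libraries: Ccl6 left it without KI 513, and Ccl12 joined it without WT 503, Cxcl10 without WT 527 and Ccl4 without KI 526. With no filter on low counts Cxcl2 joined it. Their lowest adjusted p over the alternatives was 0.232 for Ccl6 and 0.15 for Cxcl16, both by DESeq2, and the highest was 0.868 for each. All 9 fold changes stayed above 0 except that of Ccl5, which ran from −0.17 to 0.41 with 1 library left out (−0.17 without WT 506, −0.08 without WT 527 and −0.08 without KI 528). Leaving out WT 504 lowered Ccl2 from 0.19 to 0.02 and the median within-group SD of the members from 0.34 to 0.21. That SD ranged from 0.21 to 0.37 over the libraries left out. No paired analysis was made, because the labels name no pairs of mice, and whether any were paired is not known. Depth limits Cxcl2, at 0 to 60 reads. Cxcl10, at 61 to 295 reads, had a counting SD of 0.11 on the log2 scale, if reads are independent, against 0.66 between mice.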

Other observations

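Ccl7, a further Ccr2 ligand, lies in the same chromosome cluster as Ccl2 and Ccl12 and was looked at after its values had been seen. It was read at 51.8, 16.8, 51.2 and 64.2 CPM in WT 503, 504, 506 and 527, and at 58.9, 35.3, 67.8 and 44.9 CPM in KI 513, 526, 528 and 549. The groups overlapped, with a log2 fold change of 0.17 and an edgeR adjusted p of 0.957. Its transcript is the nearest to that of Ccl2 in the annotation, at 72% identity over 257 aligned bases.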
